A study of Mus musculus with 6 samples.

Results

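Day-12 mouse embryos heterozygous for a STAT3-K177K180R allele were compared with wild-type embryos, using 4 of the 6 arrays of the series. These were the 2 arrays titled heterozygous mutant and the 2 titled wild type, and they were chosen because all of them lie on the same slide, so that the comparison does not cross slides. The allele is named for arginine in place of a pair of nearby lysines of STAT3. Per the labels, embryos of the different genotypes came from the same womb, and the design text gives each group as 2 independent experiments. The titles name embryos from mice of a genotype, and the genotype field of the wild type also holds the word mutant; the group names were followed. The sample labels give the tissue as embryos and title each array as 1 embryo, although the extraction protocol names RNA of tumor tissue; no dissection is described, and values are read here as averages over all cell types of an embryo. The sources used here do not give the strain, how the allele was made, or the size and exact stage of each embryo.

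STAT3 is a transcription factor that waits in the cytoplasm until a cytokine receptor, often one that contains the shared subunit gp130, is engaged. Janus kinases (JAKs) bound to the receptor then phosphorylate STAT3, which dimerises, enters the nucleus and binds target genes, among them those of the liver's acute-phase response and SOCS3, the inhibitor that switches the receptor off again. Lysines of STAT3 can be acetylated, and an arginine in their place keeps the positive charge but cannot be acetylated.

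The 2 wild-type arrays had 77.1% and 76.4% of gene probes well above background, against 76.0% and 78.3% on the heterozygous arrays. No spot was saturated. The heterozygous embryos occupied array positions 1 and 2 of the slide and the wild-type embryos positions 3 and 4, so position on the slide and genotype cannot be told apart. Defining markers of liver, red cell, lens, muscle, heart, cartilage, neural, vascular, macrophage, neutrophil, skin and yolk sac lineages were well above background on at least 1 array. Of 5 trophoblast markers, 4 were well above background on all 4 arrays and Tpbpa on none. The 1 decidual marker, Prl8a2, was not well above background on any array. Levels below are log2 intensities relative to the 75th percentile of the array's gene probes, a difference is heterozygous minus wild type on that scale, and its ± is the standard error from limma over 2 embryos against 2.

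Of 24154 genes tested none (0.0%) had an adjusted p below 0.05 in limma after Benjamini-Hochberg correction, and the lowest adjusted p was 0.129. At an unadjusted p below 0.05 there were 1056 genes (4.37%), of which 711 were higher (2.94%) and 345 lower (1.43%) in the heterozygous embryos. That 67.3% of these were higher depended on the scaling: the share was 60.6% with quantile normalization, 61.4% with the authors' log2 table, 48.3% with scaling to the median and 29.3% with normexp background correction. The median difference over all genes was 0.00, with 5th and 95th percentiles of -0.22 and 0.31. That median was -0.04 with normexp or scaling to the median, and -0.01 with quantile normalization or the authors' table. In 6505 genes (26.9%) both heterozygous embryos lay beyond both wild-type embryos, 3563 above (14.8%) and 2942 below (12.2%). A difference of at least 2-fold was found for 103 genes (0.426%), and in 38 of these the embryos of the 2 genotypes overlapped.

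By median absolute log2 difference, the heterozygous pair was further apart, and the wild-type pair closer, than any pair of unlike genotype. The median absolute log2 difference was 0.110 within the wild-type pair and 0.166 within the heterozygous pair, while the 4 pairings of unlike genotype gave 0.118 to 0.136. Genes more than 2-fold apart numbered 155 within the wild-type pair, 171 within the heterozygous pair and 132 to 245 between embryos of unlike genotype. With 2 embryos against 2, an exact permutation test of a single value cannot go below a two-sided p of 0.333. Differences below are therefore given as measured values, and none of them passed the adjusted threshold. Normexp background correction brought 49 of the 127 genes followed through the alternatives nearer to 0 by over 1.5 times or turned their sign, and those values are given beside the genes described most closely.

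**Figure D1:**
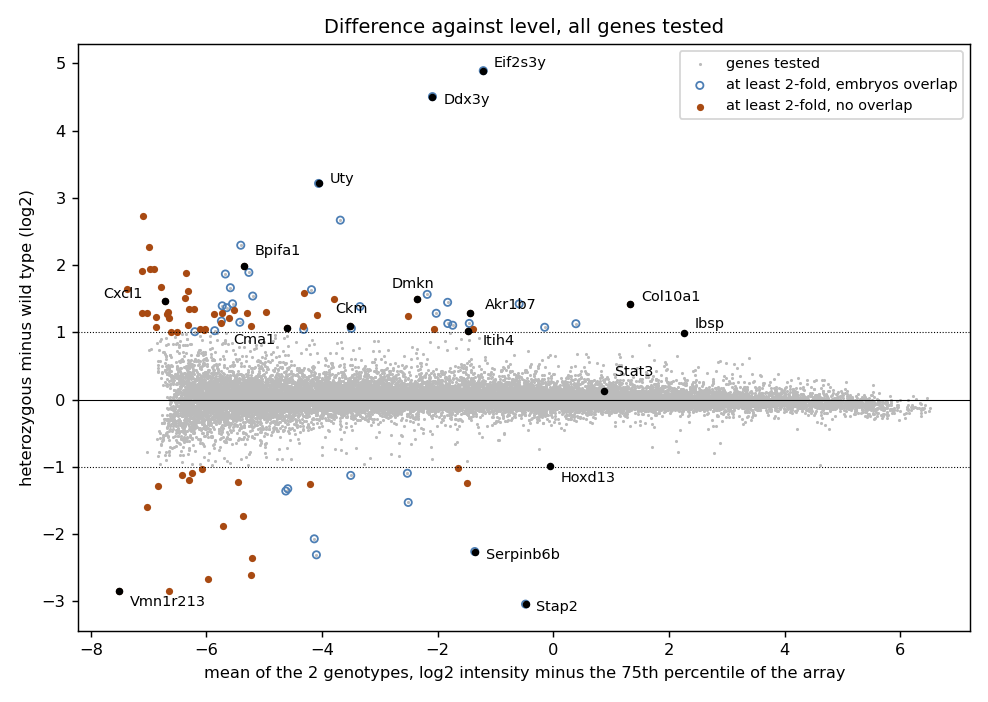
Difference between heterozygous and wild-type embryos (vertical axis, log2) against the mean level of both genotypes (horizontal axis, log2 relative to the array's 75th percentile) for all 24154 genes. Black points are genes described in the text, filled brown points and open blue circles are genes at least 2-fold apart without and with overlap between the genotypes, and dotted lines mark 2-fold. Stat3 lies near the middle at 0.13, and several of the largest differences (Ddx3y, Eif2s3y, Uty, Stap2) come from genes in which 1 embryo stood apart.

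Stat3 itself lay at 0.82 and 0.82 in the wild-type embryos and at 1.07 and 0.82 in the heterozygous embryos. Both heterozygous values lay above both wild-type values, the second by a margin too small to show at this rounding. The difference was 0.13 ± 0.13 (adjusted p = 1.00 in limma), and the dimmer of the 2 Stat3 probes also gave 0.13. The arrays measure the amount of transcript and do not read the altered codons, so this is no check of the genotype labels.

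None of the cytokines that signal through STAT3 separated the genotypes. Of 16 ligands, 11 were tested, with a median difference of 0.02, and all 11 overlapped (26.9% of all genes did not). Il6, Lif, Il21, Lep and Csf3 were not tested. All 16 receptor genes were tested, with a median difference of 0.06. Of these, 5 were non-overlapping and higher (14.8% of all genes were) and 1 non-overlapping and lower (12.2% were). Il6st, which codes for the shared subunit gp130, read -0.38 and -0.56 in the wild type against -0.54 and -0.37 in the heterozygotes. The 2 genotypes overlapped, the difference was 0.02 ± 0.13, and its sign turned with quantile normalization, scaling to the median or the authors' table. Lifr, the receptor of leukaemia inhibitory factor, differed by 0.05 ± 0.11.

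Of the receptors, 2 had an unadjusted p below 0.05 in limma, both higher (2.94% of all genes were). Osmr, the receptor of oncostatin M and itself a STAT3 target, read -3.35 and -3.27 in the wild-type embryos and -2.80 and -2.96 in the heterozygous embryos. Both heterozygous values lay above both wild-type values, by a mean of 0.43 ± 0.12 (adjusted p = 0.792 in limma), or 0.20 with normexp. Il27ra, the interleukin-27 receptor, was dim, at -6.22 and -6.58 against -5.95 and -5.82, and was also without overlap (0.51 ± 0.15, adjusted p = 0.868 in limma), but differed by only 0.0019 with normexp. Cntfr, the ciliary neurotrophic factor receptor, was the lowest of the group at -0.22 ± 0.14.

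Among JAKs and STATs 11 of 12 were tested, with a median difference of 0.03 and none at an unadjusted p below 0.05. Jak1 differed by 0.07 ± 0.11, Jak2 by -0.02 ± 0.11, Stat5a by 0.20 ± 0.16 and Stat5b by 0.12 ± 0.18. The 17 inhibitors of the pathway were all tested and gave a median of 0.02, also with none at that threshold. Socs3, the feedback inhibitor of gp130 and a direct STAT3 target, read 1.36 and 1.59 in the wild type and 1.53 and 1.54 in the heterozygotes, so that the heterozygous values lay inside the wild-type range. Socs1, which blocks JAKs directly, read -1.33 and -1.41 against -0.89 and -1.31. Its heterozygous values were both above the wild-type values, one of them by a small margin, and the difference was 0.27 ± 0.16.

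STAT3 dimers bind a palindrome that the letters TTCNNNGAA describe. The 250 bases before the annotated start were searched for it, on both strands at once since it is its own reverse complement, in the RefSeq promoter table of assembly GRCm38.p6. Of the 38 listed STAT3 targets, 28 were found there. Of these 28, 5 held the motif (17.9%), against 8.13% of all 27025 genes there. The stretches of these 5 genes match the motif by its letters alone, and binding of STAT3 to them was not tested. The motif is in capitals and each stretch is read 5′ to 3′ on the gene's strand.
Socs3, chr11:117969502-117969530, minus strand: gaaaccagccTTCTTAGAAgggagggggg
Icam1, chr9:21015888-21015916, plus strand: ggcgcgaggtTTCCCGGAAagtggccccg
Irf1, chr11:53769914-53769942, plus strand: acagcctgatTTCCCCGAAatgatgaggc
Tnfrsf1a, chr6:125349473-125349497, plus strand: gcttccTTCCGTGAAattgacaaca
Bcl6, chr16:23981433-23981461, minus strand: aggccgcggcTTCCTGGAAagttacttct
Bcl6, chr16:23981387-23981415, minus strand: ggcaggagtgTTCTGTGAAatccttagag
Bcl6, chr16:23981353-23981381, minus strand: atcgactacgTTCCGGGAAtgagagggct
Bcl6, chr16:23988952-23988980, minus strand: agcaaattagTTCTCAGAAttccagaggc

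The motif begins 154 bases before the start of Socs3, 42 before that of Icam1, 90 before that of Irf1 and 244 before that of Tnfrsf1a. Bcl6 held it 4 times before its annotated starts. These 5 genes did not share a difference. Irf1, an interferon-responsive transcription factor, was without overlap at -0.13 and -0.07 in the wild type and 0.24 and 0.04 in the heterozygotes (0.24 ± 0.12). Icam1, an adhesion molecule of vessels and leukocytes, gave 0.21 ± 0.14, but the sign turned with normexp (-0.06). Socs3 at 0.06 ± 0.13, the transcriptional repressor Bcl6 at 0.07 ± 0.13 and the tumour necrosis factor receptor Tnfrsf1a at 0.00 ± 0.12 overlapped between genotypes.

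All 38 listed STAT3 target genes were tested. Their median difference was 0.10, and 17 were without overlap and higher in the heterozygous embryos (44.7%, against 14.8% of all genes), while 2 were lower. The median was 0.09 in the first and 0.11 in the second heterozygous embryo relative to the wild-type mean. It was 0.02 with normexp, where the median of all genes was -0.04. Over only the targets with a second kept probe, read at that probe, it was -0.02. At an unadjusted p below 0.05 in limma 5 targets were higher (2.94% of all genes were) and none lower, and no target passed the adjusted threshold. The counts of 17 and 5 include Saa3, which was tested only because both heterozygous arrays read it. Its p rests on wild-type values below background.

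These 5 were Hp, Osmr, Saa3, Mmp9 and Fos. Haptoglobin (Hp), a liver protein that binds free haemoglobin, read -1.79 and -1.73 in the wild-type embryos and -1.38 and -1.06 in the heterozygous embryos. Both heterozygous embryos were above the wild type (0.54 ± 0.14, adjusted p = 0.713 in limma). Mmp9, a matrix-degrading protease of osteoclasts and leukocytes, read -3.50 and -3.54 against -3.14 and -3.21, again without overlap (0.35 ± 0.11, adjusted p = 0.938 in limma), but only 0.15 apart with normexp. The immediate-early factor Fos differed by 0.30 ± 0.12 (adjusted p = 1.00 in limma). Saa3, a serum amyloid A made in inflammation, was not well above background in either wild-type embryo and was tested only because both heterozygous arrays read it. It was at least 1.22-fold higher, its p rests on wild-type values below background, and its sign turned with normexp (-0.14).

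Other targets without overlap were Cebpb (0.25 ± 0.12) and Cebpd (0.25 ± 0.13), transcription factors of the acute-phase response. The NF-kappaB cofactor Bcl3 (0.33 ± 0.14) and Zeb1 (0.30 ± 0.13), a repressor of epithelial genes, belonged to the same group. Pim1, a growth-promoting kinase, was the lowest target at -3.06 and -2.87 in the wild type and -3.77 and -2.93 in the heterozygotes. That value rested on the first heterozygous embryo, and without it the difference was 0.04 in place of -0.38.

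Genes of contractile muscle were mostly higher in both heterozygous embryos. All 31 skeletal muscle genes were tested, 29 had positive differences, and 21 were without overlap and higher (67.7%, against 14.8% of all genes), with none lower. Unadjusted p was below 0.05 for 11 of them in limma, all higher, where 2.94% of all genes were, and none passed the adjusted threshold. The median difference was 0.27. Relative to the wild-type mean it was 0.46 in the first and 0.16 in the second heterozygous embryo, and each of these is also the value obtained without the other. The wild-type embryos themselves stood at 0.08 and -0.08 on that scale. In whole-embryo RNA, more muscle cells and more RNA per muscle cell cannot be told apart.

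The muscle creatine kinase gene Ckm, which buffers ATP in fibres, read -3.99 and -4.15 in the wild-type embryos and -2.75 and -3.19 in the heterozygous embryos. Both heterozygous embryos were higher, the first more than the second (1.1 ± 0.17, adjusted p = 0.469 in limma), and the difference was 0.61 with normexp. Its mitochondrial counterpart Ckmt2, which is not on the list, gave -6.26 and -6.06 against -5.21 and -5.13, a difference of 0.99 ± 0.12 without overlap, but of only 0.13 with normexp. Myf6, the myogenic factor of maturing fibres, read -3.60 and -3.88 against -2.86 and -3.07 (0.77 ± 0.15, adjusted p = 0.469 in limma), or 0.43 with normexp. Of the earlier myogenic factors, Myf5 was without overlap (0.42 ± 0.16, but 0.19 with normexp) and Myod1 overlapped (0.17 ± 0.18).

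Structural genes of the fibre followed with smaller values. Fast troponin T (Tnnt3) differed by 0.60 ± 0.14, and its second probe gave 0.53. Skeletal actin Acta1, at 1.74 and 1.57 against 2.34 and 1.98, was without overlap (0.50 ± 0.16). The slow myosin heavy chain Myh7 (0.65 ± 0.21), perinatal myosin Myh8 (0.49 ± 0.19), fast troponin I Tnni2 (0.49 ± 0.16) and the giant spring protein titin, Ttn (0.56 ± 0.22), were each higher in the first than in the second heterozygous embryo. The fast myosin light chain Mylpf was dim on its probe (0.69 ± 0.21) and turned sign with normexp (-0.08). Against this direction, Mymk, the membrane protein that fuses myoblasts, read -0.44 and -0.87 in the wild type and -1.70 and -0.81 in the heterozygotes, low in the first heterozygous embryo alone.

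Heart muscle genes lay on the same side. Of 22 genes 20 were tested, with a median of 0.25, and 12 were without overlap and higher while 2 were lower, against 14.8% and 12.2% of all genes. The first heterozygous embryo had a median of 0.34 and the second 0.11 above the wild-type mean, where the first wild-type embryo also stood at 0.11, and without the second wild-type embryo the median was 0.16. Phospholamban (Pln), which restrains calcium uptake in heart muscle, read -1.95 and -2.46 in the wild type against -1.62 and -1.33 (0.73 ± 0.20, adjusted p = 0.744 in limma). Ventricular light chains Myl3 (0.64 ± 0.16) and Myl2 (0.44 ± 0.16) and the heart troponin Tnnt2 (0.34 ± 0.12) were also without overlap. So were the Z-disc protein Csrp3 (0.41 ± 0.12) and the calcium release channel Ryr2 (0.38 ± 0.12, but 0.23 with normexp). Atrial myosin Myh6, at 1.1 and 0.72 against 1.82 and 1.03, overlapped between genotypes.

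**Figure D2:**
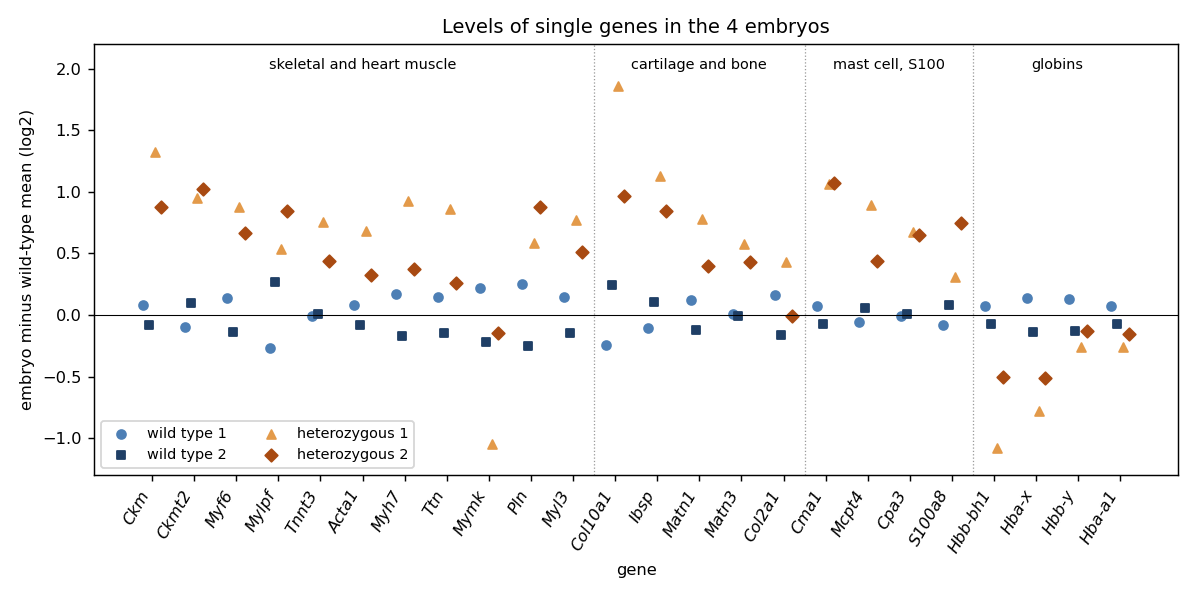
Level of 24 genes in each embryo relative to the mean of the wild-type embryos (vertical axis, log2), grouped by tissue; circles and squares are the wild-type embryos and triangles and diamonds the heterozygous embryos. Ckm, Ibsp and Cma1 separate the genotypes by about 1 log2 unit, Mymk is low only in the first heterozygous embryo, and Hbb-bh1 and Hba-x are lower in both.

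Cartilage and bone genes were higher mainly in the first heterozygous embryo. Of 26 genes 25 were tested, with a median difference of 0.24, 11 without overlap and higher (14.8% of all genes were), 1 lower (12.2% were), and 6 at an unadjusted p below 0.05, all higher (2.94% were). The median was 0.38 in the first and 0.08 in the second heterozygous embryo, against 0.06 and -0.06 in the wild-type embryos. Over only the members with a second kept probe, read at that probe, the median was 0.00.

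Col10a1, the collagen of hypertrophic cartilage, read 0.37 and 0.86 in the wild-type embryos and 2.48 and 1.59 in the heterozygous embryos. The groups did not overlap, and the first heterozygous embryo was the highest (1.42 ± 0.31, adjusted p = 0.575 in limma). Ibsp, the bone sialoprotein of the mineralising matrix, read 1.65 and 1.87 against 2.89 and 2.60, a difference of 0.99 ± 0.15, and its second probe gave 1.18. Sp7, the master factor of osteoblasts, differed by 0.29 ± 0.11, but by 0.17 with normexp.

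Matrilins and cartilage oligomeric protein, which crosslink the cartilage matrix, were without overlap, with 0.59 ± 0.17 for Matn1, 0.50 ± 0.12 for Matn3 and 0.44 ± 0.15 for Comp. Col2a1, the main collagen of all cartilage, read 4.73 and 4.4 in the wild type and 5.0 and 4.56 in the heterozygotes, and overlapped (0.21 ± 0.19). Of 31 tested extracellular matrix genes of general connective tissue, 15 were without overlap and higher (14.8% of all genes were) and 1 lower (12.2%), with a median of 0.12; that median was 0.20 in the first and 0.07 in the second heterozygous embryo.

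Hox genes, the clustered factors that assign position along the trunk and limbs, were lower at one end of their clusters. Of 39 genes 38 were tested, 29 had negative differences, and 13 were without overlap and lower (34.2%, against 12.2% of all genes) while 4 were higher. At an unadjusted p below 0.05 in limma 7 were lower (1.43% of all genes were) and 1 higher (2.94%). A split by paralog group was made after the values were seen. Of the 26 genes in groups 1 to 9, 1 was lower at that threshold and the median was -0.05, while of the 12 genes in groups 10 to 13, which act in the distal limb, tail and genital region, 6 were lower and the median was -0.29. For groups 10 to 13 the median was -0.33 in the first and -0.24 in the second heterozygous embryo.

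Hoxd13, needed for the digits, read 0.57 and 0.30 in the wild-type embryos and -0.42 and -0.67 in the heterozygous embryos. Both heterozygous embryos lay below both wild-type embryos (-0.98 ± 0.15, adjusted p = 0.469 in limma). Hoxa13, its counterpart in the other limb cluster, read -4.01 and -4.18 against -4.98 and -4.97 (-0.88 ± 0.12), while its second probe gave -0.76 and normexp -0.53. Within the Hoxd cluster, Hoxd12 at -0.93 and -1.16 against -1.79 and -2.12 gave -0.91 ± 0.16. Differences of its neighbours were -0.48 ± 0.15 for Hoxd11, -0.36 ± 0.14 for Hoxd10 and -0.20 ± 0.14 for Hoxd9, the last overlapping between genotypes.

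The pattern did not extend to all clusters. Hoxa11 (-0.30 ± 0.11), Hoxa10 (-0.28 ± 0.14) and Hoxb13 (-0.24 ± 0.13) were without overlap and lower. Hoxc13, which acts in hair and nail, was without overlap and higher, at -4.15 and -4.15 in the wild type against -3.65 and -3.66 (0.50 ± 0.11, adjusted p = 0.577 in limma), or 0.17 with normexp. Hoxb8 was the member of groups 1 to 9 with the largest difference (-0.33 ± 0.11). Among 28 transcription factors of limb and face, 7 were without overlap and lower (12.2% of all genes were) and 2 higher (14.8%), with a median of -0.07; Msx1, a factor of limb and jaw mesenchyme, differed by -0.35 ± 0.15.

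**Figure D3:**
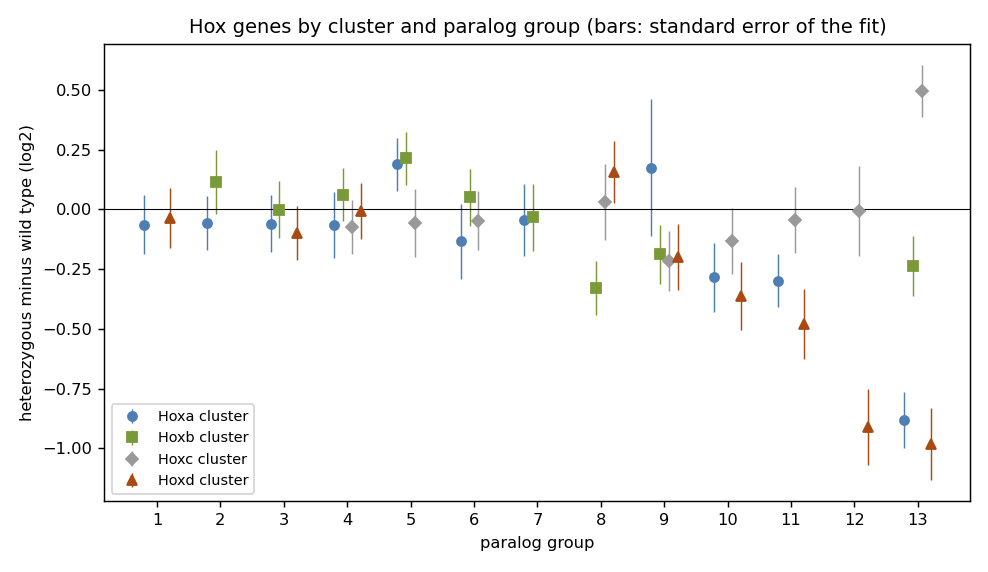
Difference between heterozygous and wild-type embryos (vertical axis, log2) for the 38 tested Hox genes by paralog group (horizontal axis), coloured by cluster; bars are the standard error of the fit over 2 embryos against 2. Values of the Hoxa and Hoxd clusters go down from group 9 to group 13, where they reach -0.88 and -0.98, while Hoxc13 lies at 0.50.

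The median of mast cell and neutrophil genes was higher in both heterozygous embryos than in either wild-type embryo. Of 18 listed genes 14 were tested, all 14 had positive differences, and 9 were without overlap (14.8% of all genes were, on the higher side), with 7 at an unadjusted p below 0.05 in limma (2.94% were). Each of these counts includes Cxcl1, which was tested only because both heterozygous arrays read it, so that its p rests on wild-type values below background. The median was 0.32, with 0.25 in the first and 0.52 in the second heterozygous embryo, and 0.15 with normexp. In a grouping made after the values were seen, which adds the chymase gene Cma1, the 5 mast cell genes had a median of 0.66. The connective-tissue mast cell chymase Mcpt4 read -4.99 and -4.87 in the wild type and -4.03 and -4.49 in the heterozygotes (0.67 ± 0.17, but 0.16 with normexp), and carboxypeptidase Cpa3 read -0.39 and -0.38 against 0.29 and 0.26 (0.66 ± 0.11). Cma1 read -5.07 and -5.21 in the wild-type embryos and -4.08 and -4.07 in the heterozygous embryos, without overlap (1.07 ± 0.12, adjusted p = 0.372 in limma), but 0.37 apart with normexp. Kit, the receptor that mast cells share with blood stem cells and melanoblasts, overlapped between genotypes (0.10 ± 0.12).

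Of the neutrophil genes, the calcium-binding S100a8 read 0.73 and 0.90 against 1.12 and 1.56 (0.53 ± 0.17), and its partner S100a9 differed by 0.40 ± 0.14. The granule genes Ctsg (0.45 ± 0.17) and Camp (0.43 ± 0.17) were without overlap, while myeloperoxidase, Mpo, overlapped (0.18 ± 0.15). In each of these 5 genes the second heterozygous embryo was the highest of the 4. Cxcl1, a chemokine that draws neutrophils, was not well above background in either wild-type embryo and was at least 1.69-fold higher in the heterozygous embryos; with normexp the log2 difference was only 0.040. Macrophage genes had a median of 0.17 over 18 tested members, 11 of them without overlap and higher (14.8% of all genes were) and none lower (12.2% were). That median was 0.09 in the first and 0.21 in the second heterozygous embryo, and examples are Cybb, the phagocyte oxidase (0.41 ± 0.17, but 0.11 with normexp), and the complement gene C1qa (0.24 ± 0.12).

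Red cell genes had no common direction in the heterozygous embryos. The 21 erythroid genes had a median of -0.17, but it was -0.53 in the first and 0.14 in the second heterozygous embryo, so that its sign depended on which was used. Gata1, the factor that directs red cell formation, read 1.58 and 1.72 in the wild type and 0.92 and 1.76 in the heterozygotes, low in the first heterozygous embryo only. Platelet genes followed the same division, with medians of -0.38 and 0.05.

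The globins made early in the yolk sac differed in both heterozygous embryos. Hbb-bh1 read 3.26 and 3.11 in the wild-type embryos and 2.10 and 2.68 in the heterozygous embryos, without overlap (-0.79 ± 0.20, adjusted p = 0.686 in limma). Hba-x, the zeta chain, read 3.34 and 3.06 against 2.42 and 2.68 (-0.64 ± 0.15, adjusted p = 0.614 in limma). The third embryonic globin, Hbb-y, read 6.0 and 5.74 against 5.61 and 5.74 and overlapped at its brighter probe (-0.19 ± 0.14), while its other probe gave -0.40. Adult globins, set apart after the values were seen, had a median of -0.16, with -0.21 ± 0.12 for Hba-a1. Globin genes share long stretches of sequence, so probes may read more than 1 of them.

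Acute-phase genes of the liver, a classical set of STAT3 targets, pointed different ways. Of 30 genes 27 were tested, with 8 without overlap and higher (14.8% of all genes were) and 2 lower (12.2% were). The median was 0.18, but it was -0.09 in the first and 0.37 in the second heterozygous embryo. It was -0.02 with normexp, where the median of all genes was -0.04. Over only the members with a second kept probe, read at that probe, it was -0.03. Markers of fetal hepatocytes had a median of -0.01 over 27 genes, with -0.13 and 0.17 in the same embryos, and Afp, their most used marker, differed by -0.11 ± 0.12.

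Itih4, an inhibitor chain of the inter-alpha-trypsin family, read -2.03 and -1.93 in the wild-type embryos and -1.13 and -0.78 in the heterozygous embryos. The genotypes did not overlap (1.02 ± 0.15, adjusted p = 0.469 in limma), and its second probe gave 0.83. The copper carrier ceruloplasmin, Cp, read -2.53 and -2.46 against -2.08 and -1.71 (0.60 ± 0.15). Saa2 went the other way, at -4.23 and -4.49 against -4.75 and -4.80 (-0.42 ± 0.13, adjusted p = 0.925 in limma), although serum amyloid genes are close copies whose probes may cross-read. Hamp, the iron-regulating hormone hepcidin, read -5.75, -7.66, -5.78 and -5.61, with the second wild-type embryo alone standing low. That low value lay below the lowest signal well above background on its array (-6.74). The protease inhibitor Serpina3n gave 0.28 ± 0.13, and its sign turned with normexp (-0.17).

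Epithelial and epidermal genes had a median of 0.12 over 24 tested members, with 9 without overlap and higher (14.8% of all genes were) and none lower (12.2%), and 5 at an unadjusted p below 0.05 in limma, all higher (2.94% of all genes were). The median was 0.18 in the first and 0.11 in the second heterozygous embryo. Desmoplakin (Dsp), which anchors cells to each other, differed by 0.32 ± 0.11, the desmosome-associated Perp by 0.36 ± 0.13, keratin Krt19 by 0.37 ± 0.13 and the barrier factor Grhl3 by 0.37 ± 0.14. Ovol1, a transcriptional repressor of the epidermis, gave 0.58 ± 0.11 but -0.02 with normexp.

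A pair of epidermal genes that are not on the list were named for the size of their differences. Dmkn, dermokine, read -3.48 and -2.75 in the wild type and -1.31 and -1.92 in the heterozygotes (1.5 ± 0.29, adjusted p = 0.469 in limma), with 1.56 at its second probe. Krtdap, a keratinocyte differentiation protein, read -3.39 and -2.88 against -1.60 and -2.19 (1.24 ± 0.25). In both genes the second wild-type embryo was the nearer to the heterozygous embryos, without reaching them.

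The lowest p value of all belonged to Bpifa1, a secreted protein of the airway lining. It read -6.45 and -6.23 in the wild-type embryos and -4.24 and -4.47 in the heterozygous embryos, both of the latter above the wild type (1.98 ± 0.14, adjusted p = 0.129 in limma), but the difference was 0.53 with normexp. Sftpc, a surfactant protein of the lung bud, was also on the higher side (0.74, or 0.44 with normexp). Akr1b7, an aldose reductase-like enzyme of the adrenal gland and gonads, read -2.19 and -1.97 against -0.79 and -0.79 (1.29 ± 0.13, adjusted p = 0.319 in limma). Cyp11a1, which opens steroid synthesis, differed by 1.35 but by 0.075 with normexp. Its first wild-type value (-7.35) lay below the lowest signal well above background on that array (-6.75). Dazl, an RNA-binding protein of germ cells, differed by -0.86, or by -0.45 with normexp. Cyp11a1, Dazl and Sftpc were named after their values were seen. The remaining genes of lowest p on the higher side were Olfm5 (0.75 ± 0.11, but 0.28 with normexp) and Serpini2. Serpini2 was not well above background in either wild-type embryo, so that its p rests on values below background there; it was at least 1.41-fold higher, and -0.03 with normexp.

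On the lower side the rule named first Vmn1r213, a vomeronasal receptor gene, at -5.77 and -6.42 in the wild type and not well above background in either heterozygous embryo. It was tested only because both wild-type arrays read it, and its adjusted p of 0.129 in limma rests on heterozygous values below background. It was at least 1.63-fold lower, and by normexp differed by -0.51. Another receptor of that family, Vmn1r197, was at least 2.06-fold lower, but by normexp differed by -0.37. These receptors belong to a large family of similar sequences. The defensin Defb26 read -4.96 and -4.97 against -5.82 and -5.87 (-0.88 ± 0.11, but -0.41 with normexp). Hoxa13 and Hoxd13 also belonged to the 10 named genes of lowest p on this side. Ido2 (-0.92 ± 0.13), Adam24 (-0.91 ± 0.14), Stk32c (-0.91 ± 0.16), Lexm (-0.97 ± 0.17) and Sbk2 (at least 1.29-fold lower) made up the rest and were all dim. Vmn1r213, Vmn1r197 and Sbk2 were not well above background in either heterozygous embryo, and Ido2 and Lexm were so in only 1 of the 2. With normexp the differences were -0.28 for Ido2, -0.39 for Adam24, -0.37 for Stk32c, -0.41 for Lexm and -0.32 for Sbk2. F2rl1, a protease-activated receptor, gave -1.03 ± 0.21, and Zfp575 gave -0.89 ± 0.21, but -0.41 and -0.29 with normexp.

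Several of the largest differences rested on 1 embryo. Adm2, a vasodilator peptide, read -3.20 and -5.79 in the wild type and -6.30 and -6.16 in the heterozygotes. Exoc3l4 read -2.05 and 0.31 against -2.12 and -2.10. Zc3h12a, an RNase that degrades cytokine messages, read -2.43 and -4.73 against -4.75 and -4.94. In each, a single wild-type embryo stood far above the other 3. With normexp the differences were -0.73 for Adm2, -1.14 for Exoc3l4 and -0.81 for Zc3h12a, in place of -1.73, -1.24 and -1.26. Gpnmb, a glycoprotein of macrophages and pigment cells, was high in the second heterozygous embryo alone (-3.92, against -6.31, -6.08 and -5.82). Il7 (-6.11, -6.33, -4.42 and -5.59) was highest in the first heterozygous embryo. With normexp the difference was 0.35 for Gpnmb and 0.27 for Il7, in place of 1.33 and 1.21. The neuregulin gene Nrg4 differed by -1.22 ± 0.29 at its brighter probe (-0.53 with normexp) and by 0.33 at the other.

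Transcripts of the sex chromosomes also set 1 embryo apart. The Y-linked genes Ddx3y, Eif2s3y and Uty read -8.88, -8.68 and -8.89 in the first wild-type embryo, and 0.20, 1.37 and -2.45 in the second. Both heterozygous embryos were like the second wild-type embryo, with 0.01 and 0.31 for Ddx3y. Xist, the RNA of the inactive X chromosome, was well above background only in the first wild-type embryo, at -0.45 and -2.43 on its 2 probes. The differences of 4.50 for Ddx3y, 4.89 for Eif2s3y and 3.21 for Uty were -0.03, -0.13 and -0.01 without that embryo. The wild-type group therefore held 1 embryo with Xist and 1 with Y-linked transcripts, while both heterozygous embryos had Y-linked transcripts.

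**Figure D4:**
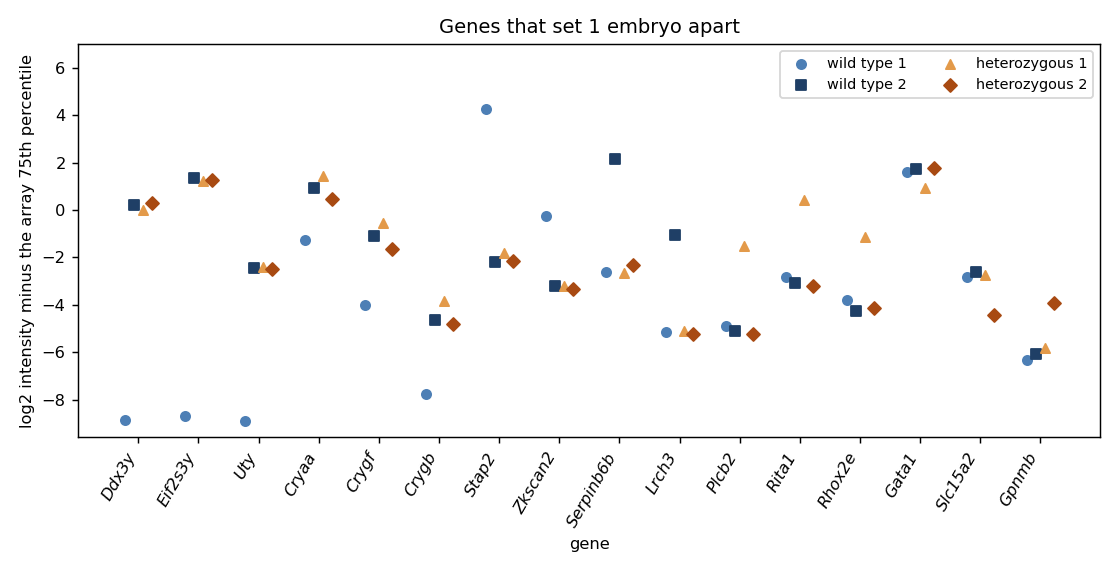
Level of 16 genes (vertical axis, log2 relative to the array's 75th percentile) in the 2 wild-type embryos (circles, squares) and the 2 heterozygous embryos (triangles, diamonds). The Y-linked genes and crystallins are low in the first wild-type embryo, Stap2 and Zkscan2 are high in it, Serpinb6b and Lrch3 are high in the second wild-type embryo, and Plcb2, Rita1 and Rhox2e are high in the first heterozygous embryo.

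The first wild-type embryo also had the lowest lens crystallins. Cryaa, the alpha chain of the lens fibre, read -1.28 and 0.93 in the wild-type embryos and 1.45 and 0.46 in the heterozygous embryos, so that the second wild-type embryo lay between the heterozygous ones. Crygb, Crygc, Cryge and Crygf, gamma crystallins of close sequence, had the same order of embryos. The median difference of 15 crystallins was 1.1, and without the first wild-type embryo it was 0.02. Only Cryab, which muscle also makes, was without overlap (0.45 ± 0.16).

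Further genes set a single embryo apart. Stap2, an adaptor protein that binds STAT3, read 4.28 in the first wild-type embryo and between -2.20 and -1.83 in the other 3. In that embryo Zkscan2 was at -0.26 against -3.23, -3.23 and -3.32. Serpinb6b, a serine protease inhibitor, read 2.15 in the second wild-type embryo and between -2.67 and -2.31 elsewhere, and Lrch3 read -1.04 against values from -5.24 to -5.10. The first heterozygous embryo was high for Plcb2 (-1.51 against -4.89, -5.11 and -5.22), Rita1, Rhox2e, Adgrl1 and Mmp17, and the second was low for the peptide transporter Slc15a2 (-4.45). A second kept probe existed for Plcb2 and Adgrl1. At that probe Plcb2 read -5.44 in the first heterozygous embryo against -5.91, -5.56 and -5.45, and Adgrl1 read -4.29 against -4.64, -4.63 and -4.69, so neither repeated the high value of the brighter probe. The other genes named here had 1 kept probe.

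**Figure D5:**
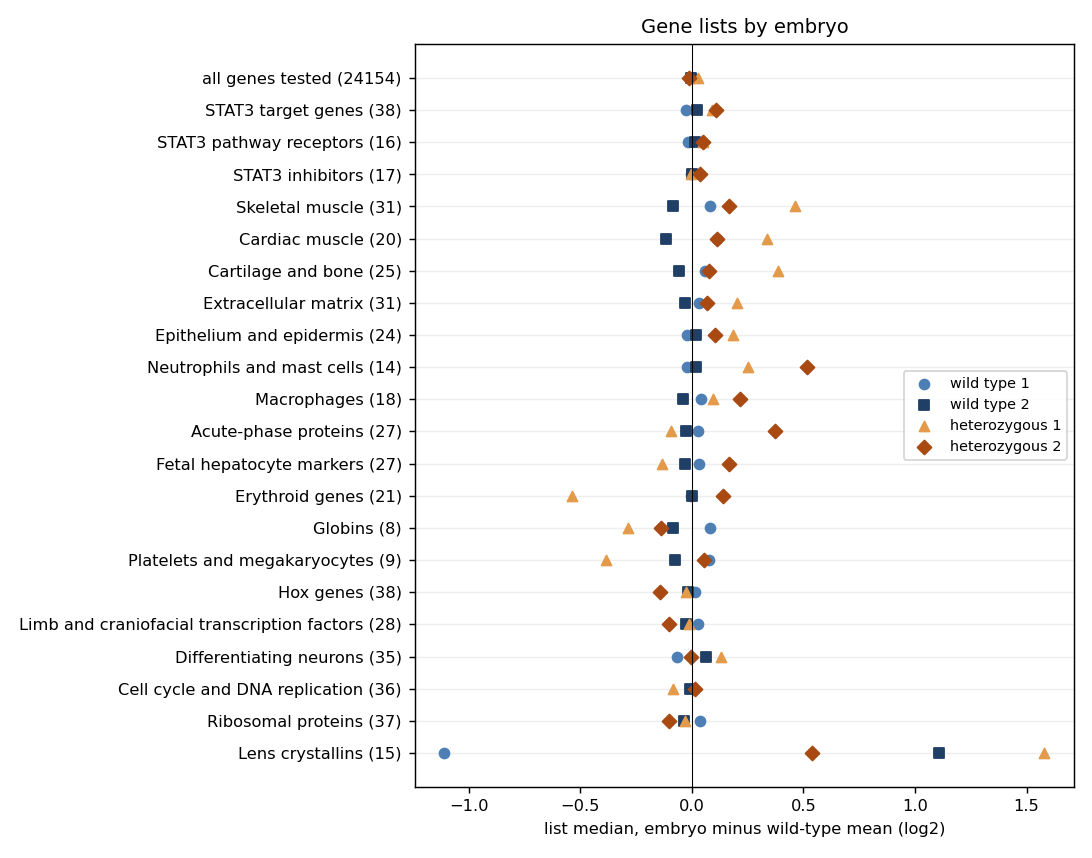
Median of each gene list (rows, number of genes tested in brackets) in every embryo relative to the mean of the wild-type embryos (horizontal axis, log2); circles and squares are the wild-type and triangles and diamonds the heterozygous embryos. The skeletal muscle list lies to the right in both heterozygous embryos and further in the first, the second lies with the first wild-type embryo for heart muscle, erythroid and acute-phase lists lie on opposite sides in the 2 heterozygous embryos, and crystallins are low in the first wild-type embryo.

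Many of the other lists stayed near the level of all genes, but not all. Without overlap and higher were 10 of 28 genes of the unfolded protein response (2 lower, median 0.07) and 7 of 21 immediate early genes (1 lower, median 0.08). The same held for 5 of 12 trophoblast and placenta genes (1 lower, median 0.16), where 14.8% of all genes were higher and 12.2% lower. Differentiating neurons had a median of 0.06 over 35 genes with 6 higher and 3 lower without overlap (14.8% and 12.2% of all genes were), and cell cycle genes -0.05 over 36 with 6 higher and 7 lower. Cholesterol and fatty acid synthesis (median 0.01), glycolysis and hypoxia (0.00), interferon response (0.00) and the FGF, BMP and TGF-beta pathways (0.00) had no member at an unadjusted p below 0.05 in limma. Acetyltransferases, deacetylases and bromodomain proteins, which write, remove and read lysine acetylation, gave a median of 0.00 over 29 genes, with 3 higher and 5 lower without overlap. Ribosomal protein genes leaned down, with 15 of 37 without overlap and lower and 1 higher, where 12.2% and 14.8% of all genes were, but the median was only -0.07, and their member with the lowest p was Rpl35 (-0.30).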

How the data were processed

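Per the labels, RNA of each embryo was labelled with Cy3 and measured on its own 1-colour Agilent 4x44K mouse array. Per the file headers, the authors deposited scanner files with background-subtracted intensity values from Feature Extraction 11.0.1.1, not normalized between arrays, and a series table of normalized log2 values whose method is not given in the sources used here. Each column of that deposited log2 table matched its array's log2 intensity with a correlation of at least 0.995.

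Control and outlier spots were left out, spots of a probe averaged, and the 75th percentile of each array subtracted from the log2 intensity. A probe was kept where either genotype had both of its arrays well above background (29668 of 39429). Names came from RefSeq accessions (GRCm38.p6, names and promoters only; the array design is annotated to mm9), which named 69.1% of probes. A gene was read from its brightest kept probe, giving 24154 genes, 7277 of them unnamed. Heterozygous and wild-type arrays alone were fitted with limma 3.58.1 in R 4.3.3 (2 residual and 4.26 prior degrees of freedom), with Benjamini-Hochberg adjustment over all genes. The fit was tested on data simulated with its own estimated variance. It called 1 of 67 genes changed 1.5-fold, 33 of 67 changed 2-fold and 65 of 66 changed 4-fold, with 7 false calls. The simulated noise was normal and independent between genes, and changed genes were planted, so these rates need not hold for the measured data. The sources name no separate litters beyond a shared womb, so p-values measure the spread between these embryos.

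Genes named are up to 10 per direction by smallest p and by largest difference without overlap, up to 10 per genotype with the largest gap between its embryos, the STAT3 pathway, and members of each list by p or gap; others named for comparison were chosen after their values were seen. The groups, lists and rules were chosen with earlier results of these data known. "At least" folds compare with the lowest signal well above background on each array. Arrays give no read depth; their number limits the precision.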

Additional observations from a re-analysis of the deposited data

How the results depend on the processing

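Alternatives changed 1 choice at a time. No gene was called in limma with quantile normalization, scaling to the median, the deposited log2 table, other filters on dim probes, every probe or the second brightest probe, all 6 arrays, or without X and Y genes. Normexp background correction called 1 gene (Akr1b7) and a trended robust variance 7, among them Bpifa1, Vmn1r213, Akr1b7, Ibsp, Hoxd13 and Itih4. Leaving out 1 embryo called 1 to 40 genes, 20 without the second heterozygous embryo, 33 without the first wild-type embryo and 40 without the second, with the lone embryo assumed to vary like the others. The normexp correction used the median spot signal, since the mean spot signal was not in the files used here.

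Shared replicate numbers were not taken to pair the embryos. The difference between replicates 1 and 2 correlated at 0.00528 across genes between the genotypes. That value cannot exclude a pairing by litter or experiment, since differences particular to single embryos can hide one. A fit with the replicate block called 4 genes, among them Vmn1r213 and Bpifa1.

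Genes at an unadjusted p below 0.05 numbered 534 with all 6 arrays, 159 over the fewer genes with a second probe, and 780 to 2628 without 1 embryo. Those at least 2-fold apart numbered 18 with normexp, 552 without the filter on dim probes, 52 when all 4 arrays had to be well above background, 14 by second probes, and 110 to 188 without 1 embryo. Genes without overlap numbered 1147 by second probes and 12843 to 17479 without 1 embryo, where a lone embryo overlaps less often by construction. Probes of the same gene gave the same sign in 61.9% of 4410 genes, and in 57.9% to 64.7% without 1 embryo.

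Signs turned for some genes, and the cause was not tested. Of these, Hamp differed by 1.96 without the first wild-type embryo. That value rests on a second wild-type value (-7.66) below the lowest signal well above background on its array (-6.74). Without the second wild-type embryo Nrg4 differed by -1.68. The values of Ddx3y, Eif2s3y and Uty without that embryo rest on signals below background in the first wild-type embryo. With quantile normalization the difference was -0.0022 for Il6st and 0.00038 for Tnfrsf1a. With scaling to the median the difference was -0.027 for Il6st. The median over all genes was -0.044 with that scaling and -0.045 with normexp. With the deposited log2 table the difference was -0.0020 for Il6st. With normexp the difference was -0.14 for Saa3, -0.055 for Icam1, 0.027 for Tnfrsf1a, -0.17 for Serpina3n, -0.045 for Hamp, -0.083 for Mylpf, -0.016 for Ovol1 and -0.032 for Serpini2. With second brightest probes the difference was 0.026 for Tnfrsf1a, -0.079 for Cryaa and 0.33 for Nrg4. Without 1 embryo at a time the difference ranged from -0.065 to 0.017 for Jak2, -0.0034 to 0.41 for Stat5a, -0.11 to 0.35 for Stat5b, -0.068 to 0.11 for Il6st, -0.054 to 0.17 for Socs3, -0.027 to 0.17 for Bcl6, -0.070 to 0.068 for Tnfrsf1a and -0.80 to 0.039 for Pim1. It ranged from -0.048 to 0.38 for Myod1, -0.0096 to 0.43 for Col2a1, -0.011 to 0.37 for Mpo, -0.74 to 0.11 for Gata1, -1.68 to 0.11 for Nrg4, -0.035 to 9.04 for Ddx3y, -0.13 to 9.92 for Eif2s3y and -0.0073 to 6.43 for Uty, the Y-linked genes among them turning without the first wild-type embryo.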
